A study of Homo sapiens with 6 samples.

Results

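Open chromatin was examined around 10 genes of interleukin-6 (IL-6) signalling in MM.1S, a human multiple myeloma cell line, after inhibition of the ATPases RUVBL1 and RUVBL2. The 10 genes were IL6, IL6R, IL6ST, JAK1, JAK2, STAT3, SOCS1, SOCS3, PIM1 and PIM2, out of 20007 protein-coding gene symbols in GENCODE release 44. Omni-ATAC, a transposase assay that marks accessible DNA, was run on 3 libraries of cells exposed to the inhibitor CB-6644 (120 nM, 72 h) and on 3 of cells given the vehicle DMSO. The cells of both groups were the same line with no engineered allele, and per the study's methods live cells were sorted and libraries were size-selected on a gel. Every library comes from this line alone, and nothing in the labels says whether the replicates were separate cultures, so p-values measure only the spread between these libraries. A region can lose signal because fewer cells hold it open or because it is less open in each cell, and bulk libraries cannot tell these apart.

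IL-6 is a growth and survival factor of plasma cells and of myeloma cells. It binds its receptor IL6R, the complex engages the signalling subunit gp130 (encoded by IL6ST), and the kinases JAK1 and JAK2 bound to gp130 phosphorylate the transcription factor STAT3. STAT3 dimers bind the palindrome TTCNNNGAA and induce, among others, the kinases PIM1 and PIM2 and the feedback inhibitors SOCS1 and SOCS3. RUVBL1 and RUVBL2 are subunits of chromatin remodelling complexes such as INO80 and TIP60, and CB-6644 blocks their ATPase activity.

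The peaks of the 6 lists were merged where they shared at least 1 bp, which gave 89196 regions (hg38). A member region was any merged region that overlapped a gene body or the 50 kb on either side of it, and there were 144. The 6 libraries called 95, 95 and 95 of these with CB-6644 and 113, 116 and 100 with DMSO, so that every DMSO library called more. As a share of all regions called in the same library, the values were 0.165%, 0.157% and 0.166% with CB-6644 and 0.159%, 0.167% and 0.155% with DMSO, and the groups overlapped. The lists held 58563 to 71781 peaks with CB-6644 and 65569 to 79020 with DMSO, and they carry no read totals, so the depth is unknown. CB-6644 replicate 2 and DMSO replicate 1 stood apart from the other 4 libraries, since their shortest peaks were 65 and 91 bp long against 131 to 152 bp. The former 2 are termed short-peak libraries and the other 4 long-peak libraries. Their fragment lengths and calling settings are not given in the sources used here, and whether sequencing or peak calling differed was not tested. The promoters of 8 of 8 plasma cell markers had a peak in all 6 libraries, while those of the T cell genes CD3E, CD3D and CD2 had 0. Among other lineage genes, PAX5, CD14, SPI1 and EPCAM had a promoter peak in all 6 libraries, KRT18 in 5, KRT8 in 1, and MS4A1 and CSF1R in 0.

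Of the 144 member regions, 71 were called in all 6 libraries, which is 49.3% against 47.2% of all merged regions. Another 66 were called in some libraries of both groups or in part of 1 group, and 23 of them in a single library (8 with CB-6644 and 15 with DMSO). Among these 66, 43 were called in more DMSO than CB-6644 libraries (65.2%, against 58.7% of all such merged regions), 14 in fewer (21.2%, against 25.6%) and 9 in equal numbers (13.6%, against 15.8%). The last 7 were called in every library of 1 group and in none of the other. Own promoters, meaning 1000 bp around any transcription start site (TSS) of the gene, held 18 regions, promoters of neighbouring genes 12, and the other 114 were distal.

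The first question was whether the promoters of the pathway stayed accessible. All 10 genes had a promoter region called in all 6 libraries, which was so for 66.4% of protein-coding genes. The strength of a peak is given as the percentile of its −log10 p within its own list, where 100 is the strongest, because the lists were not scaled to each other. A percentile also depends on how many weaker peaks a list holds, and the lists differ in length. A lower percentile alone therefore does not show lower signal. By the mean over the 6 libraries, the order at the region nearest the canonical TSS was STAT3, IL6ST, PIM1, JAK2, IL6R, JAK1, PIM2, SOCS1, SOCS3 and IL6. The ranges of neighbours in this order overlapped except between STAT3 and IL6ST and between IL6R and JAK1.

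Among the receptor genes, the IL6ST promoter (chr5:55994546-55995503) lay at the 96.6, 96.5 and 97.3 percentiles with CB-6644 and at 97.8, 96.4 and 97.4 with DMSO. The 2 groups overlapped there. The IL6R promoter (chr1:154404636-154406214) lay at 89.0, 88.7 and 92.0 with CB-6644 and at 92.2, 92.7 and 93.2 with DMSO. Every CB-6644 value was below every DMSO value by percentile, while the difference in log2 fold enrichment after quantile normalization was 0.28 (SE 0.219, adjusted p = 0.589, limma), so the 2 measures differ in sign. The promoter of the ligand gene IL6 (chr7:22726236-22726642) also lies at a start site of the neighbouring gene STEAP1B, and its nearest edge was 0.558 kb upstream of the canonical IL6 start. It was the weakest of the 10, at 46.4, 60.8 and 52.2 with CB-6644 and 68.1, 57.4 and 42.0 with DMSO, with overlapping groups.

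The JAK2 promoter (chr9:4984421-4985643) lay at 92.5, 88.6 and 92.6 with CB-6644 and at 94.0, 94.7 and 95.9 with DMSO. It was lower in every CB-6644 library by percentile, and its log2 difference of 0.12 (SE 0.159, adjusted p = 0.745, limma) had the other sign. JAK1 has several start sites and 5 promoter regions, of which 4 were called in all 6 libraries. The region over its canonical start (chr1:64965939-64966952) lay at 77.8, 87.3 and 85.4 with CB-6644 and at 85.6, 83.9 and 75.4 with DMSO. A stronger one within the gene (chr1:64864072-64864494) was intronic, 102.1 kb downstream of the canonical start. It counted as a promoter because it was within the promoter distance of an internal start site. This intronic promoter region lay between 91.8 and 95.9 in all 6 libraries. A region 0.974 kb upstream of the canonical start (chr1:64967523-64967865, intronic) lay at 34.4, 46.3 and 7.003 with CB-6644 and at 66.6, 69.8 and 72.0 with DMSO. Its groups did not overlap by percentile, and its log2 difference of −0.57 (SE 0.320, adjusted p = 0.451, limma) did not pass the threshold.

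STAT3 had the strongest promoter of the 10 (chr17:42388072-42388957), at 98.9, 99.5 and 99.3 with CB-6644 and at 99.2, 99.0 and 99.4 with DMSO. The groups overlapped, with a log2 difference of 0.07 (SE 0.104, adjusted p = 0.786, limma).

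Of its targets, PIM1 had a strong promoter (chr6:37169553-37170682), at 94.4, 94.5 and 97.1 with CB-6644 and at 96.5, 95.9 and 95.1 with DMSO. The PIM2 promoter (chrX:48918816-48919813) had every CB-6644 value below every DMSO value, at 71.2, 66.6 and 79.5 with CB-6644 and at 87.5, 83.9 and 80.5 with DMSO. Its log2 difference was −0.18 (SE 0.215, adjusted p = 0.718, limma). The SOCS1 promoter (chr16:11255560-11256747) lay at 56.3, 78.4 and 69.2 with CB-6644 and at 74.9, 68.3 and 62.8 with DMSO. SOCS3 had no region over its canonical start in all 6 libraries. The region there (chr17:78360053-78360384) was not called in CB-6644 replicate 1 and lay at 49.8 and 36.0 in the other CB-6644 libraries and at 71.1, 61.4 and 28.2 with DMSO. The adjacent region 0.369 kb upstream (chr17:78360446-78361011) was called in all 6, at 49.5, 67.0 and 58.8 with CB-6644 and at 64.7, 65.0 and 54.7 with DMSO. Both the SOCS1 promoter and this SOCS3 region had overlapping groups.

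**Figure D1:**
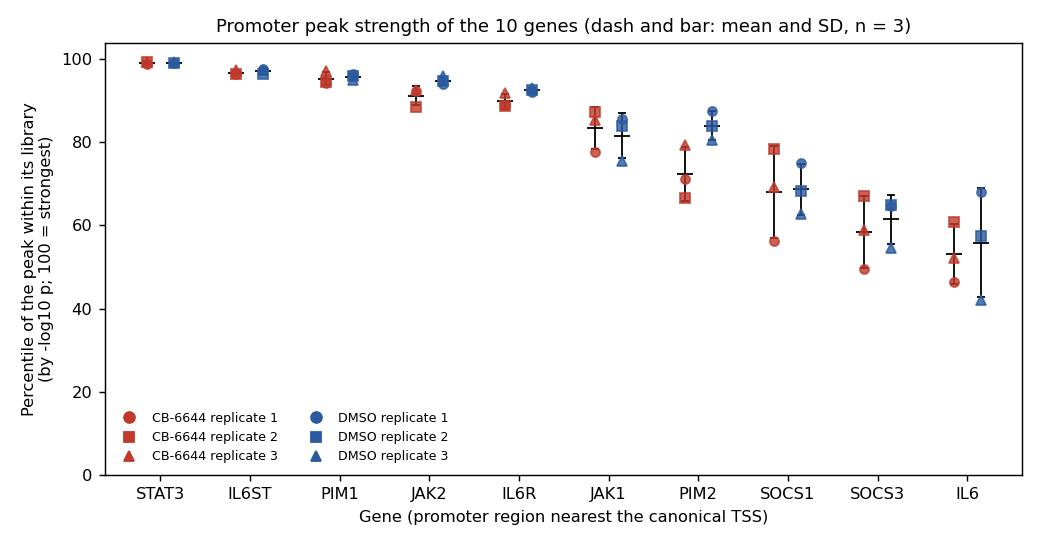
Percentile of the promoter peak within its own library (y axis, by −log10 p, 100 the strongest) for the 10 genes, at the region called in all 6 libraries that lies nearest the canonical TSS, with each library as a point and the mean and SD of each group (n = 3) as dash and bar. STAT3, IL6ST and PIM1 sit above 94 in every library, while SOCS3 and IL6 lie between 42.0 and 68.1.

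Over the 13 own promoter regions called in all 6 libraries, the log2 differences ran from −0.57 to 0.37 and the lowest adjusted p was 0.451 (limma). With the split by shortest peak as a covariate the lowest was 0.157.

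The next question was which regions around these genes were called in 1 group only. Regions called in all 3 DMSO libraries and no CB-6644 library numbered 5 (3.47% of member regions), against 4.5% of all merged regions. Regions called in all 3 CB-6644 libraries and no DMSO library numbered 2 (1.39%), against 0.586% of all merged regions. The first share is near its background, and the second is 2 regions. None of the 7 lay at a promoter, and they belonged to the windows of 4 genes, IL6ST, JAK1, STAT3 and SOCS3.

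The strongest of them was a DMSO-only region in an intron of JAK1 (chr1:64949104-64949462), 17.1 kb downstream of the canonical start. It lay at the 62.8, 69.3 and 69.4 percentiles of the DMSO lists, with fold enrichments of 19.6, 20.4 and 18.9 over local background, and no CB-6644 list had a peak there. The 101 bases around its strongest summit (chr1:64949246-64949346, plus strand) are shown because this was the strongest region that all CB-6644 lists lacked. The capitals mark its match to TGATGNAA, a composite element of ATF4 and C/EBP factors.

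JAK1 intron: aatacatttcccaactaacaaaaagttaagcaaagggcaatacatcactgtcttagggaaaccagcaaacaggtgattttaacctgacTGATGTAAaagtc

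That motif was found within 100 bp of the summit, on either strand, in 3.47% of member regions and in 3.98% of all merged regions, and in 12.7% of all DMSO-only regions. The JAK1 region also held a STAT palindrome 96 bp from its summit.

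IL6ST had 3 DMSO-only regions. The one in an intron of the gene (chr5:55943942-55944218) was weak, at the 12.7, 0.650 and 20.4 percentiles of the DMSO lists. An intergenic region 30.0 kb upstream (chr5:56024923-56025094) lay at 34.0, 28.9 and 33.5, and another 32.0 kb upstream (chr5:56026954-56027200) at 7.38, 8.71 and 15.5. Of the 3, the region 30.0 kb upstream was the highest in every DMSO list. STAT3 had 1 DMSO-only region, in an intron 55.1 kb downstream of its start (chr17:42333141-42333329), at 9.58, 11.5 and 9.09, close to the bottom of the lists. It also falls within 50 kb of STAT5A and STAT5B.

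Both CB-6644-only regions lay upstream of SOCS3. The nearer was intergenic, 6.37 kb upstream (chr17:78366445-78366835), at the 11.1, 38.7 and 4.63 percentiles of the CB-6644 lists. The farther was 28.7 kb upstream in an intron of PGS1 (chr17:78388736-78388938), at 19.1, 16.4 and 14.2. Both were weak in at least 2 of the 3 CB-6644 lists. Their summits are shown because they were the only member regions that every CB-6644 list and no DMSO list held (chr17:78366716-78366816 and chr17:78388768-78388868, plus strand), and neither stretch held any of the 4 motifs searched (STAT, IRF, AP-1 and ATF4-C/EBP).

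SOCS3 6.37 kb upstream: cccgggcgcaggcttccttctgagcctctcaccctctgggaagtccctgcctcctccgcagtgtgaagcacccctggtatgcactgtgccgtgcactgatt

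SOCS3 28.7 kb upstream: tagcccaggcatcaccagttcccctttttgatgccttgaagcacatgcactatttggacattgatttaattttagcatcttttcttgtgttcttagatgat

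All 7 remained group-only with peaks of −log10 q of at least 5. They also did when any 1 library was left out and in the long-peak libraries alone. The definition of group-only all but fixes these last outcomes in advance, so they are no test of the 7. With equal numbers of top peaks in each list, 3 remained, namely the JAK1 intron, the IL6ST region 30.0 kb upstream and the SOCS3 region 6.37 kb upstream. Where a list had to cover at least 50% of the region, 4 remained, and the weak IL6ST intron, the IL6ST region 32.0 kb upstream and the SOCS3 region 6.37 kb upstream did not. With the 20000 strongest peaks of each list, 0 of the 7 remained.

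**Figure D2:**
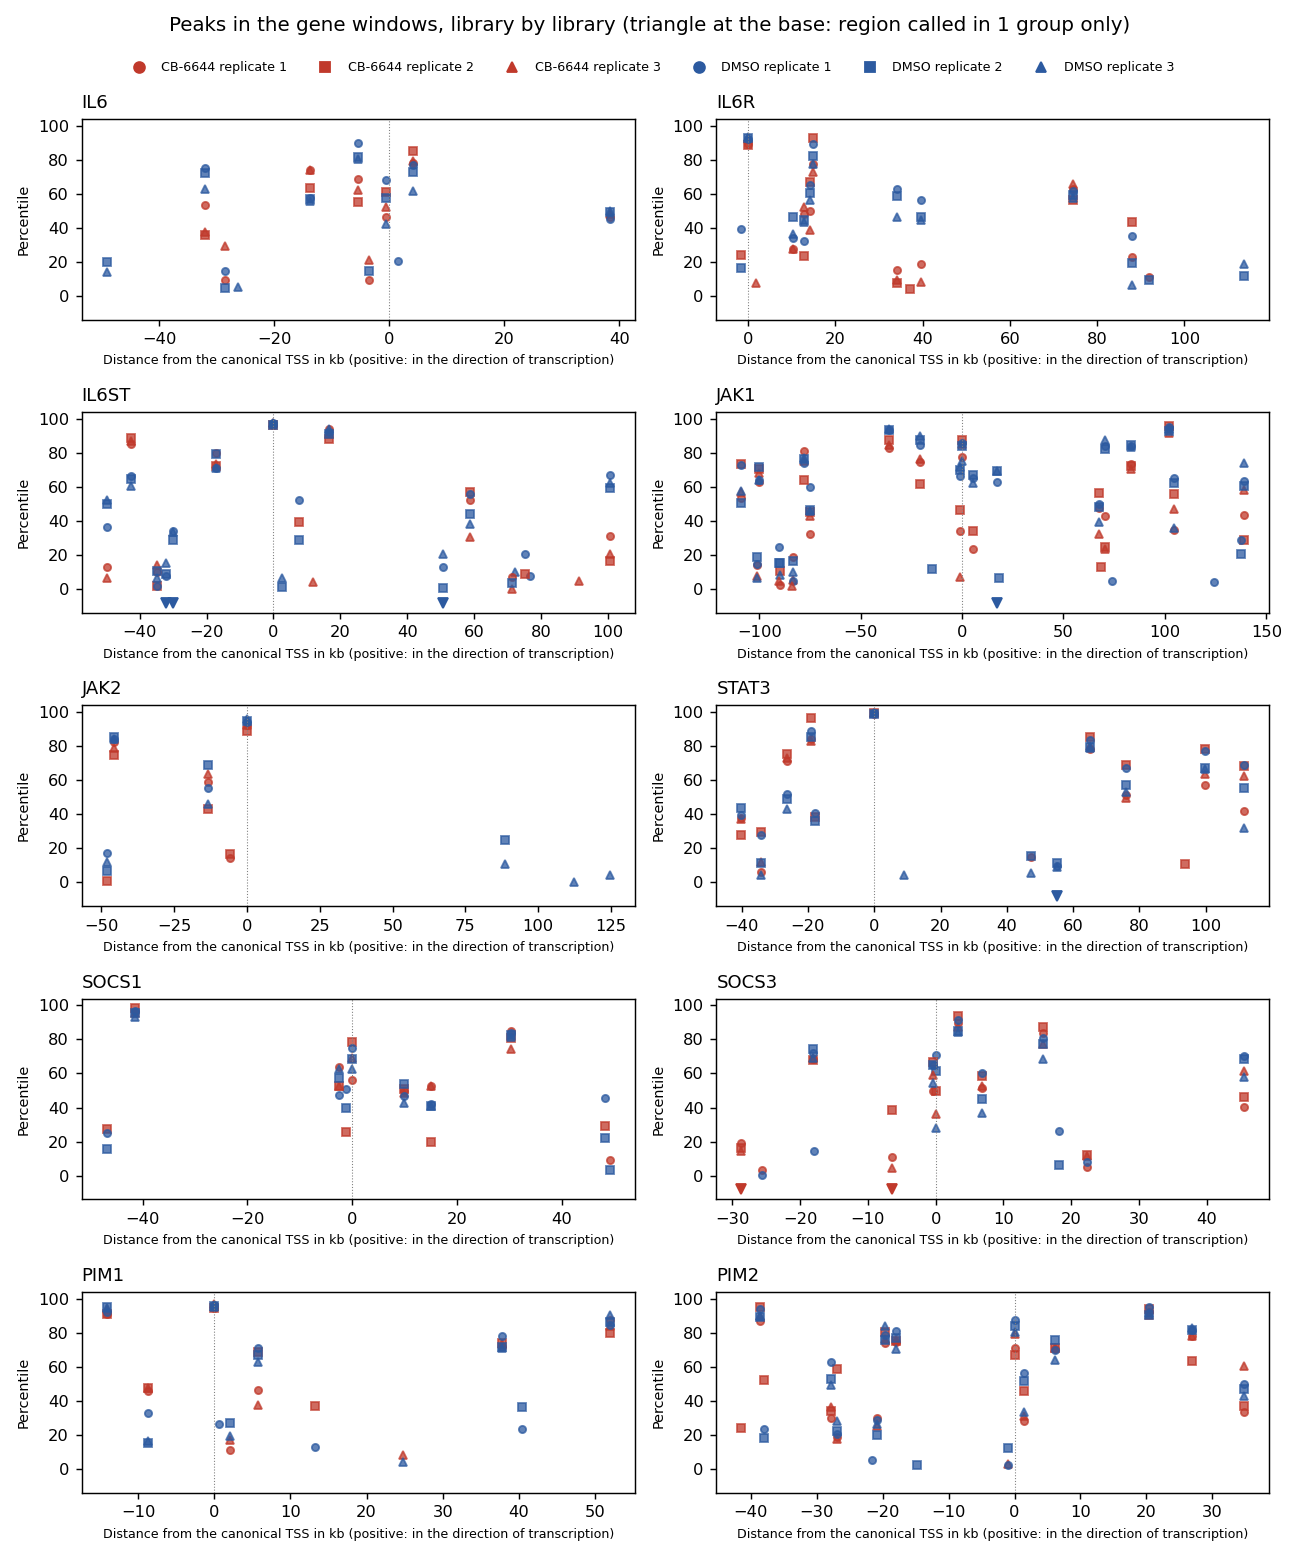
Peaks in the windows of the 10 genes, 1 panel a gene, against the distance of the region's nearest edge from the canonical TSS in kb (x axis, positive in the direction of transcription), with the percentile within the library on the y axis and each library as a point. Triangles at the base mark the 7 group-only regions, 3 at IL6ST, 1 each at JAK1 and STAT3 (DMSO) and 2 at SOCS3 (CB-6644).

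The 71 regions called in all 6 libraries could be compared by strength. On quantile-normalized log2 fold enrichment, fitted with limma over all 42089 such regions, 2 member regions were lower with CB-6644 at an adjusted p under 0.05 (2.82% against 0.418% of all regions) and 0 were higher (0.321% of all regions). At an unadjusted p under 0.05, 5 were lower (7.04%, against 8.09% of all regions) and 5 higher (7.04%, against 6.35%). The median log2 difference was 0.07 over the 71 and 0.02 over all regions.

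Of the 2 lower regions, the first is in an intron of IL6R, 34.1 kb downstream of its start (chr1:154439449-154439893). Its fold enrichment over local background was 9.54, 6.21 and 8.36 with CB-6644 and 23.9, 20.8 and 15.7 with DMSO, and its percentiles were 14.99, 7.33 and 9.27 against 62.8, 58.5 and 46.3. It fell by 1.23 on the log2 scale (SE 0.209, adjusted p = 0.040, limma), and it was lower in every CB-6644 library. The second is within 50 kb of IL6ST but inside an intron of its neighbour IL31RA, which encodes a receptor subunit for interleukin-31, 100.4 kb downstream of the IL6ST start (chr5:55894104-55894584). Its fold enrichment was 13.5, 7.45 and 11.1 with CB-6644 and 27.9, 24.1 and 24.3 with DMSO, and its percentiles were 31.4, 16.4 and 20.3 against 67.1, 59.6 and 62.0. It fell by 1.19 (SE 0.206, adjusted p = 0.042, limma), again with no overlap. The sequences at both summits are shown as the 2 that passed the test on the 6 libraries (chr1:154439732-154439832 and chr5:55894281-55894381, plus strand). Neither stretch held any of the 4 motifs searched, although the IL31RA intron held an AP-1 match outside the printed bases, within 100 bp of its summit.

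IL6R intron: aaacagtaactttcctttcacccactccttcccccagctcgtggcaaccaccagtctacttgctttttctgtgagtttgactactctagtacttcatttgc

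IL31RA intron: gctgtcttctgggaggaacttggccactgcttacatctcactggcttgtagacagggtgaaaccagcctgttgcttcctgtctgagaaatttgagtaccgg

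Both calls depended on the libraries and on the scaling. Each passed the threshold under 5 of 12 alternatives, with adjusted p from 0.003 to 0.264 for IL6R and from 0.002 to 0.239 for the IL31RA intron, and with log2 differences from −1.60 to −0.96 and from −1.39 to −0.90. With all 6 libraries, both were lost under median centring (adjusted p = 0.077 and 0.094) and with the replicate block (0.112 and 0.110). The number of member regions called lower was 0 without CB-6644 replicate 1, without CB-6644 replicate 3, or without DMSO replicate 1, 2 or 3, and 5 without CB-6644 replicate 2. Over all regions the same fits called 17 lower without CB-6644 replicate 1, 0 without each of the other 4 of these, and 1130 without CB-6644 replicate 2.

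The split into short-peak and long-peak libraries crosses the groups, with 1 short-peak library in each, so it could be fitted as a covariate. With it, 5 member regions were lower (7.04% of the 71, against 6.09% of all regions) and 5 higher (7.04%, against 4.22%). The IL6R and IL31RA intron regions were among the lower ones, with adjusted p = 0.003 for the IL6R intron and 0.002 for the IL31RA intron. The other 8 regions are named here because of these values, after they were seen, and each missed the threshold in the fit on 6 libraries without the covariate. Of the 8, 7 also passed in at least 1 other alternative, and the JAK1 region 67.7 kb downstream passed with the covariate alone. Those alternatives were the long-peak libraries, leaving out CB-6644 replicate 2, and −log10 p in place of fold enrichment. The regions around IL6 passed only in the last. Over all regions these fits called 2073, 1130 and 1696 lower, against 176 in the main fit. They reuse the same libraries and are not separate support.

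Among the kinase genes, the largest drop was in an intron of JAK1, 70.6 kb downstream of the canonical start (chr1:64895492-64895913). Its percentiles were 42.8, 24.8 and 23.3 with CB-6644 and 84.3, 82.5 and 87.4 with DMSO. The groups were far apart, and the log2 difference was −0.96 (SE 0.189, adjusted p = 0.054 without and 0.005 with the covariate, limma). Another JAK1 intron region 67.7 kb downstream (chr1:64898451-64898837) was higher on the log2 scale by 0.66 (adjusted p = 0.234 without and 0.042 with the covariate), although its percentiles overlapped, at 47.8, 56.6 and 32.1 against 50.05, 48.0 and 39.3.

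The region that gained most upstream of STAT3 lies in an intron of CAVIN1, 26.3 kb upstream (chr17:42414766-42415414). Its percentiles were 71.5, 75.2 and 73.1 with CB-6644 and 52.0, 49.04 and 43.4 with DMSO, and every CB-6644 library was higher. The log2 difference was 0.66 (SE 0.134, adjusted p = 0.056 without and 0.005 with the covariate, limma). Upstream of PIM1, an intergenic region 8.70 kb from its start (chr6:37161059-37161451) lay at 45.8, 47.7 and 47.6 with CB-6644 and at 32.9, 15.4 and 16.6 with DMSO. It was higher in every CB-6644 library, with a log2 difference of 0.84 (SE 0.195, adjusted p = 0.079 without and 0.011 with the covariate, limma). An intergenic region 42.6 kb upstream of IL6ST (chr5:56037541-56037970) lay at 85.0, 88.8 and 87.2 with CB-6644 and at 66.7, 64.8 and 60.4 with DMSO, and its log2 difference was 0.47 (adjusted p = 0.102 without and 0.007 with the covariate). The IL6ST window therefore held both the IL31RA intron that was lower and this region, which was higher with the covariate.

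The summits of the JAK1, STAT3 and PIM1 regions are shown as the lowest and the 2 highest differences among these 8 (chr1:64895594-64895694, chr17:42415187-42415287 and chr6:37161277-37161377, plus strand). None of the 3 stretches held any of the 4 motifs searched.

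JAK1 70.6 kb downstream: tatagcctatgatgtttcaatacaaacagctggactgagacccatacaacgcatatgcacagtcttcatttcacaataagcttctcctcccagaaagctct

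STAT3 26.3 kb upstream: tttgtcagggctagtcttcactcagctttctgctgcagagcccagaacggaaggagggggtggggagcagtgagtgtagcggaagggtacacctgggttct

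PIM1 8.70 kb upstream: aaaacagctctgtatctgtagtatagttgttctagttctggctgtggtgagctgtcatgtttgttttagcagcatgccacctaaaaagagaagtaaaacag

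The other 3 regions lay around IL6. Those in STEAP1B introns 32.2 and 5.46 kb upstream were lower with the covariate, by 0.71 and 0.47 on the log2 scale (adjusted p = 0.095 and 0.204 without, 0.014 and 0.036 with it). The region 32.2 kb upstream lay at 53.3, 35.6 and 37.3 with CB-6644 and at 75.0, 72.4 and 62.8 with DMSO. A region over an exon and UTR of IL6 (chr7:22731290-22731576), 4.09 kb downstream of its start and the strongest of the gene outside promoters, was higher by 0.45 (adjusted p = 0.201 without and 0.025 with it). It lay at 78.1, 84.7 and 79.2 with CB-6644 and at 77.0, 72.6 and 61.7 with DMSO. In the plot of differences by region, the lowest and highest values are distal.

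**Figure D3:**
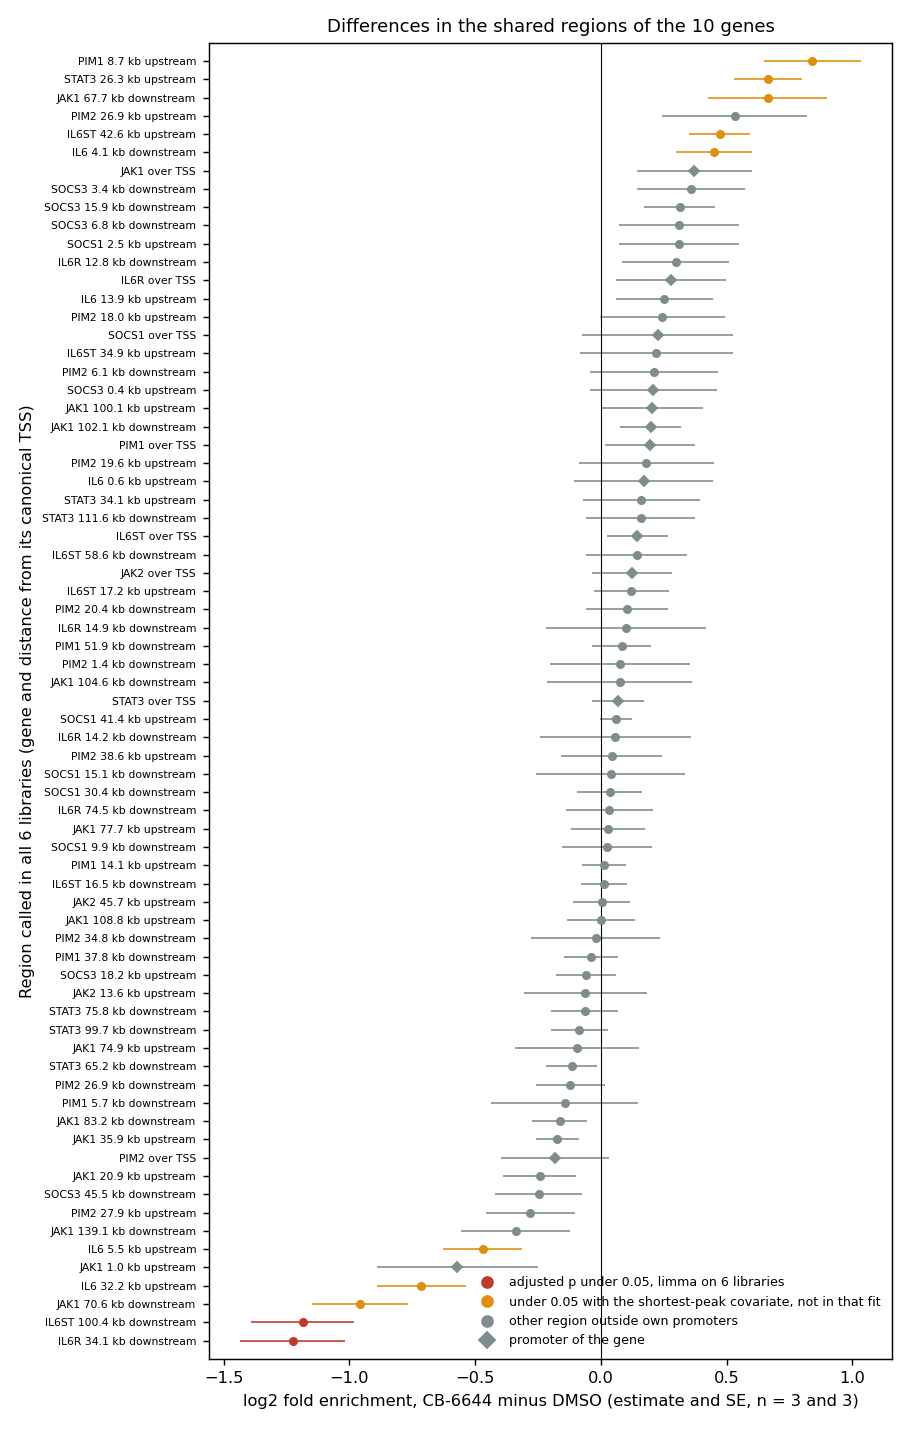
Difference in quantile-normalized log2 fold enrichment (x axis, CB-6644 minus DMSO, estimate and SE, n = 3 and 3) for the 71 regions called in all 6 libraries, 1 row a region named by gene and distance from its canonical TSS. Red marks the 2 regions that passed an adjusted p of 0.05, orange the 8 that passed with the shortest-peak covariate and not in the fit without it, and diamonds own promoters.

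By percentile alone, 18 of the 71 regions were lower in every CB-6644 library than in any DMSO library (25.4%, against 24.6% of all regions) and 5 were higher in every one (7.04%, against 5.61%). Both shares were near their background, and the exact permutation test of 3 against 3 libraries cannot go below 0.1. JAK1 held 7 of the 18, out of 14 regions, PIM2 3, IL6R, JAK2 and IL6 2 each, and IL6ST and SOCS3 1 each. STAT3, SOCS1 and PIM1 held 0. The 5 that were higher lay at STAT3, IL6ST and PIM1, with 1 each, and at IL6 with 2.

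The JAK1 regions that were lower by percentile included the strongest one outside its promoters. This intronic region 35.9 kb upstream of the canonical start (chr1:65002469-65003102) lay at 82.9, 87.4 and 84.8 with CB-6644 and at 93.6, 93.3 and 94.0 with DMSO. Its log2 difference was −0.17 (SE 0.085, adjusted p = 0.389, limma). The strongest region outside promoters at JAK2, intergenic and 45.7 kb upstream (chr9:4938994-4939525), was also lower by percentile in every CB-6644 library, at 82.7, 74.6 and 79.2 against 84.0, 85.4 and 84.1. Its log2 difference was 0.003 (SE 0.114, adjusted p = 0.993, limma), so the percentile drop was not seen on that scale. The strongest regions outside promoters at IL6R, IL6ST, STAT3, SOCS1, SOCS3, PIM1 and PIM2 overlapped between the groups by percentile. At SOCS1 this was an intron of RMI2, 41.4 kb upstream (chr16:11297584-11297987), at 95.9, 98.7 and 95.5 with CB-6644 and at 96.6, 95.2 and 93.3 with DMSO. At IL6ST it was an intron of the gene, 16.5 kb downstream (chr5:55977899-55978475), at 94.1, 88.4 and 91.2 against 92.4, 90.9 and 94.0. At SOCS3 it was intergenic, 3.36 kb downstream of the start (chr17:78356392-78356716), at 89.8, 93.6 and 87.4 against 91.7, 85.0 and 84.1. At PIM1 it lay 14.1 kb upstream (chr6:37155380-37156053), at 90.8, 90.9 and 93.8 against 92.0, 95.1 and 94.4. At IL6R it lay in an intron 14.9 kb downstream (chr1:154420286-154420487), at 77.5, 92.9 and 72.5 against 89.4, 81.9 and 77.3. At STAT3 it lay over an exon and UTR 65.2 kb downstream (chr17:42322839-42323218), at 78.1, 85.5 and 80.3 against 83.7, 79.5 and 78.9. A region in a CAVIN1 intron 19.1 kb upstream of STAT3 (chr17:42407529-42407767), named after its values were seen, lay at 84.3, 96.6 and 82.8 with CB-6644 and at 89.1 and 85.3 in DMSO replicates 1 and 2, yet had no peak in DMSO replicate 3.

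The locus as a whole was summed as the bases covered by peaks in the gene body and the 50 kb on each side. For JAK1, the longest gene, these were 6785, 4127 and 6857 bp with CB-6644 and 6708, 8962 and 7864 bp with DMSO. CB-6644 replicate 2, a short-peak library, was the lowest library at all 10 genes. It called 95 member regions, as did each of the other CB-6644 libraries. Covered bases depend on the length of peaks as well as on their number, and the cause of its low values was not tested. For IL6ST, the covered bases were 3430, 1781 and 3520 bp with CB-6644 and 3172, 4592 and 4529 bp with DMSO. The mean over the 3 libraries of a group was lower with CB-6644 at all 10 genes, from 71.0% of the DMSO mean at IL6ST to 94.5% at SOCS3. The share of all gene windows with a lower mean is not given here, so the drop cannot be called particular to these genes. At all 10 the groups overlapped, and exact two-sided permutation p ranged from 0.3 to 0.9. Across gene windows with a peak, 8.72% had all CB-6644 values below all DMSO values and 0.113% above. In the 4 long-peak libraries, 9 of the 10 genes were lower in both CB-6644 libraries, and so were 69.6% of all gene windows. SOCS3 was not, and its CB-6644 mean there was 106.6% of the DMSO mean. With 2 libraries against 2 the exact test cannot go below 0.333.

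**Figure D4:**
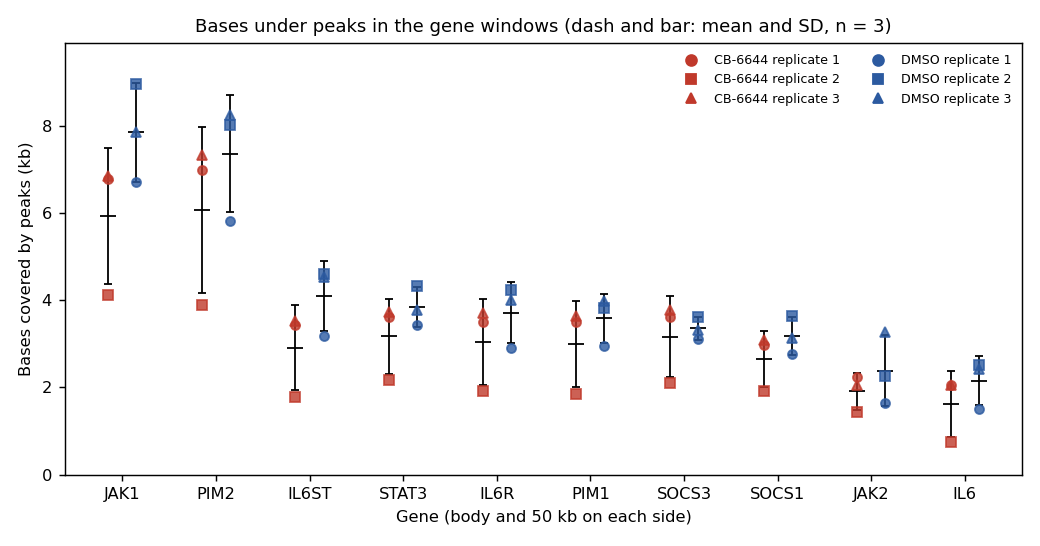
Bases covered by peaks (y axis, kb) in each gene body with 50 kb on each side, for each library as a point, with mean and SD of each group (n = 3). CB-6644 replicate 2 is the lowest point at every gene, and the 2 groups overlap at all 10.

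The last question was whether member regions carried the STAT palindrome TTCNNNGAA. Within 100 bp of the strongest summit it was found in 11 of the 144 regions, or 7.64% (95% Wilson interval 4.32 to 13.2, counting error only), and in 5.50% of all merged regions. The interval includes the share in all regions. The IRF motif GAAANNGAA was found in 12.5% of member regions and 13.7% of all, and the AP-1 motif TGANTCA in 11.1% and 10.5%. Over all DMSO-only regions the shares were 7.77% for STAT, 22.8% for IRF and 11.9% for AP-1. Over all CB-6644-only regions they were 4.97%, 5.74% and 15.1%. The DMSO-only STAT3 intron held an IRF match, and the DMSO-only region 32.0 kb upstream of IL6ST an AP-1 match. Both strands were searched, and an IRF match can share its GAA with a STAT match. The 6 matches outside UTRs in regions called in all 6 libraries or group-only are shown with 16 bases on each side (hg38, plus strand), since they are the places where STAT factors could be looked for. The capitals mark the palindrome, and a match is not evidence of binding.

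JAK1 intron, DMSO-only (chr1:64949180-64949220): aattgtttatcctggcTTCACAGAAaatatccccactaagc

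SOCS1 15.1 kb downstream (chr16:11240839-11240879): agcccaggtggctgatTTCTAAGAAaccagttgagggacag

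IL6 32.2 kb upstream (chr7:22694753-22694793): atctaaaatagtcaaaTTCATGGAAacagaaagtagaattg

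PIM2 18.0 kb upstream (chrX:48937227-48937267): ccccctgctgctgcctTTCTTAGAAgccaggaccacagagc

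PIM2 19.6 kb upstream (chrX:48938749-48938789): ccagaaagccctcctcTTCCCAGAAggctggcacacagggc

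PIM2 19.6 kb upstream (chrX:48938843-48938883): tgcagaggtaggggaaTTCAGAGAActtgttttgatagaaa

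The region 19.6 kb upstream of PIM2, the strongest of that gene outside promoters, held 2 matches and lay at 73.7, 80.6 and 76.4 with CB-6644 and at 78.6, 75.6 and 84.0 with DMSO. The region 18.0 kb upstream lay at 74.7, 75.4 and 75.8 against 80.8, 77.1 and 70.5. Both are at the neighbouring gene OTUD5, the nearer at a promoter and the farther in an intron, and both overlapped between the groups. The SOCS1 region lay at 52.8, 20.0 and 52.5 against 42.1, 41.1 and 40.6, also with overlap. Of the regions that hold these matches, the JAK1 intron was not called with CB-6644, and the region 32.2 kb upstream of IL6 was lower in every CB-6644 library.

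In 57 other genes of the pathway, 49 had a promoter region called in all 6 libraries (66.4% of all protein-coding genes did) and 4 (OSMR, CNTFR, IL31RA and IL21) had none in any library. OSMR and CNTFR encode receptor subunits that act with gp130, IL31RA the interleukin-31 receptor subunit named above, and IL21 a T cell cytokine. Their windows held 616 distinct regions, 15 of them also member regions. Of these, 24 were DMSO-only (3.90%, against 4.5% of all merged regions), 2 of which were also member regions, and 0 were CB-6644-only (0.586% of all merged regions). By the rule for naming, 4 of these genes stood out. STAT4, a STAT of T and NK cells, and PIAS1, an E3 SUMO ligase, had 3 DMSO-only regions each. IL21R, the receptor of IL-21, and MCL1, an anti-apoptotic protein that myeloma cells depend on, each had a DMSO-only region at a promoter while another of their promoter regions was called in all 6 libraries. The MCL1 region (chr1:150575233-150575388) lay at 17.8, 20.3 and 28.4 in the DMSO lists and the IL21R region (chr16:27427058-27427270) at 53.8, 22.997 and 25.8. Of 350 distinct regions called in all 6 libraries, 2 were lower (0.418% of all such regions were) and 1 was higher (0.321%) at an adjusted p under 0.05 (limma). None of the 3 lay at a promoter of these genes, and 1 of the 2 lower ones was the IL31RA intron above.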

How the data were processed

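MM.1S cells were profiled by Omni-ATAC in 3 CB-6644 and 3 DMSO libraries, grouped by their labels. Per the submitters' processing notes, alignment used Bowtie2 2.4.2 on hg38, and MACS3 3.0 called peaks for each library. The deposited fold enrichment is the ratio of pile-up to local background from the authors' caller, not scaled between libraries. The deposited −log10 p and −log10 q values are from the same caller, and the lowest −log10 q was 3.01 to 3.33. The lists hold no counts, so the study's edgeR test was not repeated and depth is unknown.

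Peaks of the autosomes (1 to 22) and of X and Y were kept and merged at an overlap of 1 bp. The strongest peak by −log10 p gave a region's value in each library. Annotation was GENCODE release 44. Regions called in all 6 libraries were tested with limma 3.58.1 (trend, Benjamini-Hochberg adjustment over all 42089) on quantile-normalized log2 fold enrichment, after the step was tested on simulated data. Single values were compared by exact two-sided permutation (smallest p 0.1). Motifs were read from hg38 on both strands. Python 3.11.15, pandas 2.3.3, scipy 1.17.1 and R 4.3.3 were used. The members, gene lists and tests were chosen with earlier results of these data known. Named were the members, their promoter regions, group-only regions, regions past the limma threshold and, for each member, the strongest region outside promoters, plus pathway genes with a group-only region or a region past the threshold at a promoter or with at least 3 group-only regions. Sequences were STAT matches, to which summits of the regions that carry the results were added after their values were seen. Alternatives were other peak thresholds, windows, promoter widths, normalizations, covariates, and leaving out each library.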

Additional observations from a re-analysis of the deposited data

How the results depend on the processing

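Counts of member regions are given in the order DMSO-only, CB-6644-only, lower and higher by limma, and lower and higher by percentile, which were 5, 2, 2, 0, 18 and 5. All 10 promoters kept a region in every library under every alternative run for them. With equal numbers of top peaks the DMSO-only count was 2, the CB-6644-only count 1 and the limma count 0 lower. With the 20000 strongest peaks the DMSO-only count was 1. In the long-peak libraries 10 were DMSO-only, 6 lower and 3 higher by limma (4.33% and 3.0% of all regions tested), and 30 lower and 13 higher by percentile. There 9 genes had fewer covered bases in each CB-6644 library, as did 69.6% of all gene windows. In all libraries 0 genes did, and 8.72% of windows. Smaller groups fail to overlap more readily, so group-only, percentile and covered-base counts from fewer libraries cannot be set against those from all. Shares over all regions for the other group-only and percentile counts under the alternatives are not given here. With 25 kb on each side the counts were 3 DMSO-only, 1 CB-6644-only, 1 lower by limma and 3 higher by percentile, and with 100 kb they were 8 DMSO-only, 28 lower and 10 higher by percentile. With a required coverage of 50% of the region, 4 were DMSO-only (3 of them among the first 5) and 1 CB-6644-only. Percentiles of fold enrichment gave 11 lower. Leaving out each library in turn gave 5 to 9 DMSO-only regions, 2 to 3 CB-6644-only, 0 to 5 lower and 0 to 3 higher by limma, 19 to 27 lower and 5 to 10 higher by percentile, and 0 to 9 genes with fewer covered bases, the 9 without DMSO replicate 1. Limma on log2 of −log10 p gave 7 lower and 5 higher (4.03% and 3.65% of all regions), the shortest-peak covariate 5 and 5 (6.09% and 4.22%), and median centring 0 and 0 (0 of all regions either). The replicate block gave 0 lower and 0 higher. The correlations of same-numbered deviations from the group means were −0.477, −0.332 and 0.326. The highest correlation, 0.572, was between the short-peak libraries, CB-6644 replicate 2 and DMSO replicate 1. Deviations within a group sum to 0, so 1 library that stands apart affects all of them. These values therefore cannot show whether the replicate numbers pair the libraries. The STAT palindrome was in 2.78% of regions within 50 bp of the summit and in 14.6% within 200 bp. The causes of these changes were not tested, apart from the fewer or more regions that narrower or wider windows hold. The log2 differences of the 10 regions past the threshold with or without the covariate kept their sign under every alternative run for them. Those of the other named regions were refitted with the covariate only.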
